A study of Homo sapiens with 8 samples.

Results

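The 6 assays described here are named as microRNA assays but read short RNAs that overlap other classes of small RNA. They are miR-720, miR-1260, miR-1274A and miR-1274B, which match transfer RNAs (tRNAs), and miR-1291 and miR-664, which lie in small nucleolar RNAs (snoRNAs). They were chosen by name, after removal of the species prefix, from the 754 assays of a pair of TaqMan cards, and all 6 sit on card B, which holds 377. Each was measured in 8 samples of 4 human cell lines from lung adenocarcinoma, PC9, PC3, LC2/ad and A549, with 1 control sample and 1 sample given TGF-β1 at 5 ng/ml for 72 h per line. All lines were grown in RPMI medium with fetal bovine serum. The labels say that the lines were not authenticated, and they call PC3 a lung line, although a prostate line has the same name. TGF-β1 is a cytokine that moves epithelial cells towards a mesenchymal state, and the series asks about that transition and gefitinib resistance. Each line was cultured once per condition as far as the labels say, so a change within a line has no replicate, and p-values measure the spread between lines or between the samples of a line.

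Canonical microRNAs are cut from hairpin transcripts by Drosha and then Dicer, and guide Argonaute to messenger RNAs through a short seed near their 5′ end. tRNAs carry amino acids to the ribosome, and their fragments are abundant in small-RNA preparations. miR-1274A and miR-1274B match lysine tRNAs, miR-720 a threonine tRNA and miR-1260 a leucine tRNA. snoRNAs of the H/ACA class guide pseudouridylation of ribosomal and spliceosomal RNA, and some are cut further into microRNA-sized pieces, as are SNORA34, the source of miR-1291, and SNORA36B, the source of miR-664. The files give no probe sequences, so whether a Ct comes from a short fragment or from the longer parent RNA was not tested.

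RefSeq (GRCh38.p14) held entries for 3 of the 6 names, miR-1260 (now miR-1260a), miR-1291 and miR-664 (now miR-664a). The mature sequences are shown with the seed, bases 2 to 8 from the 5′ end, in capitals. Whether their endings come from a parent RNA was not tested. The card name miR-664 does not state an arm, so both are given, and the relatives miR-1260b and miR-664b are added because an assay could read them too.
hsa-miR-1260a: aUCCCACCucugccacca
hsa-miR-1260b: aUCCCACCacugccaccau
hsa-miR-1291: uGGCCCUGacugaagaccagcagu
hsa-miR-664a-3p: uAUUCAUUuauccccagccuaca
hsa-miR-664a-5p: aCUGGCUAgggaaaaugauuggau
hsa-miR-664b-3p: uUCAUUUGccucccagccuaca
No seed was shared between the matched members. miR-1260a shared its seed with miR-1260b alone among the RefSeq mature sequences, and they differ by U9A (counted from the 5′ end of miR-1260a) and by 1 more base at the 3′ end of miR-1260b. miR-1260a ends in CCA, the letters that close every mature tRNA, as do 45 (1.91%) of the 2351 distinct mature human sequences in the table. Aligned at their 3′ ends, miR-664a-3p and miR-664b-3p matched at 14 of 22 bases.

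The hairpins show where the mature parts, in capitals, sit in the longer RNA.
MIR664A: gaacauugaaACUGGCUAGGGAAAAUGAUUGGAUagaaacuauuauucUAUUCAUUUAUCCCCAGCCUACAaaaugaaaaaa
MIR1291: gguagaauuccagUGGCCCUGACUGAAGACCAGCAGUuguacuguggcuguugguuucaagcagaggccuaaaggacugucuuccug
MIR1260A: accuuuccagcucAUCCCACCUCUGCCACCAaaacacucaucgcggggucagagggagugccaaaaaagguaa
MIR664A lies at chr1:220200538-220200619 on the minus strand, and 74 of its 82 bases overlap SNORA36B within the span of RAB3GAP2, a regulator of Rab GTPases on the same strand. miR-664a-3p ends in ACA, 3 bases before the end of SNORA36B if that snoRNA is read on the same strand, where H/ACA snoRNAs carry their ACA box, and 33 (1.40%) of the mature sequences end in ACA. MIR1291 lies at chr12:48654444-48654530 on the minus strand, and 75 of its 87 bases overlap SNORA2C, the current name of SNORA34, within the span of KANSL2, a subunit of a histone acetyltransferase complex on the same strand. The mature miR-1291 starts 1 base inside that snoRNA, at the opposite end when read on the same strand. MIR1260A lies at chr14:77266218-77266290 on the plus strand, across from NGB, the gene of neuroglobin, which runs on the minus strand. Whether these positions are exonic or intronic was not analysed here.

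Each value below is a threshold cycle (Ct), the PCR cycle at which the signal crosses its threshold, so that a value lower by 1 cycle means a doubled template. Assays without amplification carry the value 40. A Ct above 35 was taken as not detected. By this limit 5 of the 6 assays were detected in all 8 samples, against 51 (13.5%) of the 377 assays of card B, and miR-1291 was detected in none. Because the RNA came from whole cultures, fewer cells with an RNA and less of it per cell cannot be told apart.

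The assays matching lysine and threonine tRNAs had the lowest Ct values of card B. miR-1274B had a Ct of 20.76 in the control sample and 20.86 in the TGF-β1 sample of PC9, 18.45 and 18.68 in PC3, 18.45 and 19.07 in LC2/ad, and 19.99 and 19.11 in A549. It was the assay with the lowest Ct of the card in 6 samples and ranked 2 in both PC9 samples. miR-720 had 20.41 and 20.53 in PC9, 19.37 and 19.57 in PC3, 20.07 and 20.25 in LC2/ad, and 20.66 and 20.39 in A549. It ranked 1 in the PC9 samples, 2 in those of A549 and LC2/ad and 3 in those of PC3. miR-1274A had 21.37 and 21.6 in PC9, 19 and 19.39 in PC3, 20.49 and 20.85 in LC2/ad, and 21.6 and 21.12 in A549. The PC3 samples were thus the lowest in Ct for this assay, and it ranked 2 there and 3 in the other lines. These 3 assays held the first 3 places of card B in every sample, and U6, the spliceosomal RNA used as a control, had mean Ct values between 18.55 and 19.46 on the same card. Assays differ in efficiency, so the order of Ct values across assays is a description of the card and not of molar amounts.

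The leucine tRNA assay and the snoRNA assays lay higher in Ct. miR-1260 had a Ct of 25.91 in the control sample and 25.28 in the TGF-β1 sample of PC9, 24.89 and 25.07 in PC3, 25 and 25.24 in LC2/ad, and 25.4 and 25.57 in A549. Its raw values spanned 1.02 cycles, the smallest span of the 6 assays, and the control and TGF-β1 samples overlapped. miR-664 had 28.8 and 29 in PC9, 29.54 and 30.15 in PC3, 28.01 and 27.72 in LC2/ad, and 27.6 and 27.76 in A549. Both PC3 samples were above the other 6 samples for miR-664, the reverse of miR-1274A. miR-1291 had 40 in both PC9 samples, 35.53 and 35.41 in PC3, 39.02 and 40 in LC2/ad, and 40 and 35.35 in A549. Its 3 values near 35.4 stayed outside the limit, in both PC3 samples and in A549 after TGF-β1.

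Samples differed in overall Ct, so levels were compared after scaling. The mean Ct of the 51 assays detected in all samples ran from 28.5 to 29.8 on card B, highest in PC9. The normalized level of an assay is that mean minus its own Ct, in log2 units. The SD of the 4 U6 wells of card B within a sample lay between 0.056 and 0.40 cycles, a measure of well-to-well error. The labelled cell type was checked with marker microRNAs. Of 5 epithelial microRNAs, miR-200c alone was detected in all 8 samples. Its Ct was 22.24 and 22.23 in PC9, 25.18 and 25.58 in PC3, and 30.95 or above in A549 and LC2/ad. miR-200a was at 40 in both PC3 samples and detected in the other 6, and miR-200b was at 34.53 and 35.87 in PC3 and detected elsewhere. miR-141 was at 40 in the TGF-β1 samples of A549 and LC2/ad and not detected in the LC2/ad control sample (35.3), and miR-205 was detected in PC9 alone. Of markers of other tissues, miR-9 of nerve and miR-126 of endothelium were detected in all samples, while the blood microRNAs miR-451 and miR-144 and the liver microRNA miR-122 stayed at 40. miR-223, also of blood, was detected in both PC9 samples (33.14 and 33) and in A549 after TGF-β1 (33.9). The nerve microRNA miR-124 and the muscle microRNA miR-133a were detected in PC3 after TGF-β1 alone, at 34.89 and 34.01. These lie near the limit, and miR-133a was at 35.03 in the PC3 control sample. The other muscle microRNAs, miR-1 and miR-206, were detected in 0 samples. The fibroblast and smooth muscle microRNAs miR-214 and miR-199a-3p had Ct values between 25.14 and 25.74 in PC3, and 34.48 or above in the other lines. Those of the same list, miR-143 and miR-145, were not detected in PC3, at 35.07 or above.

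The next comparison asked where each RNA was high or low among the lines, with 2 samples per line. miR-664 and miR-1274A set PC3 apart, in opposite directions. miR-1274B passed narrowly, lowest in PC9 but without a difference between PC9 and A549 past the test, and miR-720 and miR-1260 did not pass. These 3 of 5 detected members compare with 240 of 372 assays called in the same test (64.5%; limma F test, adjusted p under 0.05), and with 72.6% of the 168 assays detected in all samples. Between single lines, the share of assays called with limma was 43.3% for A549 and PC3, 44.1% for A549 and PC9, 39.8% for LC2/ad and PC3, 41.4% for LC2/ad and PC9, 54% for PC3 and PC9, and 1.61% for A549 and LC2/ad.

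The normalized level of miR-664, from the snoRNA SNORA36B, was 1.67 in the control sample and 1.09 in the TGF-β1 sample of A549, 0.69 and 1.22 in LC2/ad, 0.99 and 0.46 in PC9, and -1.04 and -1.59 in PC3. PC3 did not overlap with any other line. A549 stood 2.70 above PC3 (SE 0.37, 95% CI 1.79 to 3.60, adjusted p = 0.00265, limma), a 6.49-fold difference of line means. LC2/ad stood 2.27 above PC3 (SE 0.37, adjusted p = 0.00529, limma), and PC9 was also above it (PC3 minus PC9 -2.04, SE 0.37, adjusted p = 0.00662, limma). In the order A549, LC2/ad, PC9 and PC3, the first 3 neighbours did not differ beyond their spread, at 0.42 for A549 minus LC2/ad (95% CI -0.48 to 1.33) and 0.23 for LC2/ad minus PC9 (95% CI -0.67 to 1.14). The test over the lines gave an adjusted p of 0.00561 (limma F test), and 0.415 without PC3. The fibroblast microRNAs miR-214 and miR-199a-3p and the epithelial miR-200a and miR-200b, given above, also separate PC3 from the other lines. The level of miR-200b was -7.34 in PC3, in part a bound, -2.34 in A549, -3.50 in LC2/ad and 3.38 in PC9. The remaining markers of these lists did not follow. miR-143 and miR-145 were not detected in PC3, and miR-205 was detected in PC9 alone. miR-200c had a level of 2.05 in PC3, above A549 (-3.45) and LC2/ad (-3.96) and below PC9 (6.79). miR-141 was at -3.01 in PC3, 0.19 in PC9, and -7.04 and -7.32, as bounds, in A549 and LC2/ad. The part of these markers in this result and in that of miR-1274A was not tested.

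miR-1274A, matching a lysine tRNA, was highest in PC3. Its normalized level was 9.50 in the control sample and 9.17 in the TGF-β1 sample of PC3, 8.21 and 8.09 in LC2/ad, 8.42 and 7.86 in PC9, and 7.67 and 7.73 in A549. The PC3 samples lay above the other 6. A549 minus PC3 was -1.63 (SE 0.28, 95% CI -2.32 to -0.95, adjusted p = 0.00549, limma), which makes PC3 3.10-fold higher. LC2/ad minus PC3 was -1.18 (SE 0.28, adjusted p = 0.0189, limma), and PC3 minus PC9 was 1.19 (SE 0.28, adjusted p = 0.0152, limma). LC2/ad and PC9 differed by 0.01 (95% CI -0.67 to 0.70), and A549 minus PC9 was -0.44 (95% CI -1.12 to 0.25). Over the lines the adjusted p was 0.0136 (limma F test), with 0.415 without PC3 and 0.0571 when the card median was the normalizer. PC3 had the highest mean in every setting that kept it.

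miR-1274B, matching another lysine tRNA, was lowest in PC9. Its normalized level was 10.25 in the control sample and 9.87 in the TGF-β1 sample of LC2/ad, 10.05 and 9.88 in PC3, 9.28 and 9.74 in A549, and 9.03 and 8.60 in PC9. Both PC9 samples lay below the other 6. LC2/ad stood 1.25 above PC9 (SE 0.32, 95% CI 0.46 to 2.03, adjusted p = 0.0246, limma), a 2.37-fold difference, and PC3 stood 1.15 above PC9 (SE 0.32, adjusted p = 0.0267, limma). A549 minus PC9 was 0.70 (95% CI -0.09 to 1.48, adjusted p = 0.129, limma). The test over the lines passed narrowly, with an adjusted p of 0.0454 (limma F test), and did not pass without LC2/ad (0.0607), without PC3 (0.118) or without PC9 (0.391). It did not pass either with RNU44 and RNU48 as the normalizer (adjusted p = 0.220, limma F test), a scaling that put A549 rather than PC9 lowest.

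miR-720 and miR-1260 varied least. The normalized level of miR-720, matching a threonine tRNA, was 9.38 and 8.93 in PC9, 9.13 and 8.99 in PC3, 8.63 and 8.69 in LC2/ad, and 8.61 and 8.46 in A549. The largest difference of line means was 0.62, or 1.54-fold (adjusted p = 0.181, limma F test), with PC3 minus PC9 at -0.10 (95% CI -0.75 to 0.56) and A549 minus PC9 at -0.62 (95% CI -1.27 to 0.03). Scaled to RNU44 and RNU48 the same difference was 1.46 and passed (adjusted p = 0.0268, limma F test), and with 1 mean over both cards it was 1.12 (adjusted p = 0.0411, limma F test). miR-1260, matching a leucine tRNA, had 3.88 and 4.18 in PC9, 3.70 and 3.70 in LC2/ad, 3.87 and 3.28 in A549, and 3.61 and 3.49 in PC3. Its line means spanned 0.48, or 1.40-fold (adjusted p = 0.461, limma F test), and PC3 minus PC9 was -0.48 (95% CI -1.24 to 0.28). The order of the lines for both assays shifted with the normalizer. Over the 8 samples miR-1260 spanned 0.90 log2 units and miR-720 0.92, while the median span of the 51 assays detected throughout on card B was 2.43. Of those 51, 2 had a smaller span than miR-1260, 3 than miR-720, 10 than miR-1274B (1.65), 13 than miR-1274A (1.83) and 40 than miR-664 (3.27). The 5 members are themselves among the 51 assays of the normalizer, and leaving them out of it changed none of these calls.

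**Figure D1:**
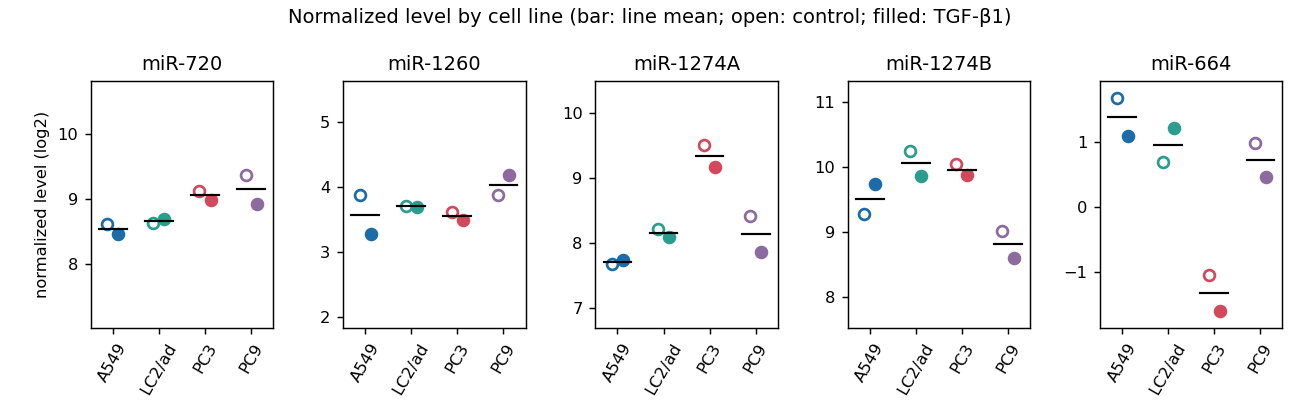
Normalized level (log2, card mean Ct minus Ct) of the 5 detected assays by cell line, with the control sample open, the TGF-β1 sample filled and the line mean as a bar, on axes of equal height. PC3 is highest for miR-1274A (9.33) and lowest for miR-664 (-1.32), and PC9 is lowest for miR-1274B (8.81).

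The difference of 2 Ct values within a sample needs no normalizer, so the members were also set against each other. This comparison was added after the Ct values had been seen. Pairs of other assays were not compared in this way, so whether the share of called pairs is unusual for the card was not tested. Single assays often set the lines apart, at 72.6% of the 168 with detection throughout (limma F test, adjusted p under 0.05). Of 10 pairs among the 5 detected assays, 2 differed between lines after adjustment in an exact permutation test of samples to lines, both with the smallest p that 105 partitions allow (p = 0.00952, Benjamini-Hochberg adjusted 0.0476, exact, on within-line spread). The first was miR-720 minus miR-1274A, at 0.37 and 0.18 cycles in PC3, -0.96 and -1.07 in PC9, -0.42 and -0.60 in LC2/ad, and -0.94 and -0.73 in A549. It was above 0 in PC3 alone, and no 2 samples of a line differed by more than 0.21 cycles. The second was miR-720 minus miR-664, at -10.17 and -10.58 in PC3, -8.39 and -8.47 in PC9, -7.94 and -7.47 in LC2/ad, and -6.94 and -7.37 in A549. PC3 again lay apart, with the lines in the order of the normalized level of miR-664 in A549, LC2/ad, PC9 and PC3.

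The distance between the pair of lysine tRNA assays did not pass this test. The test counts how many pairings of the 8 samples have a spread within pairs as small as that of the lines. Where 2 lines have like values, other pairings can match it, however far apart the remaining lines lie. A pair of assays that does not pass can thus still separate some lines. miR-1274A minus miR-1274B was 0.61 and 0.74 cycles in PC9, 0.55 and 0.71 in PC3, 2.04 and 1.78 in LC2/ad, and 1.61 and 2.01 in A549. A549 and LC2/ad thus had line means of 1.81 and 1.91, and PC3 and PC9 0.63 and 0.68, with no overlap between these pairs of lines (exact permutation p = 0.0571, adjusted 0.0952 over 10 pairs). miR-1274A minus miR-664 did not pass either (exact permutation p = 0.0286, adjusted 0.0714), with the widest range of the 10 pairs, 4.76 cycles. It was -10.54 and -10.76 in PC3 and between -7.52 and -6 in the other lines. miR-720 minus miR-1260 ranged from -5.52 to -4.74 (exact permutation p = 0.448, adjusted 0.448), and its 2 samples differed by 0.75 in PC9. As a description over 8 samples that share a card and a normalizer, the levels of miR-1274A and miR-664 ran against each other (r = -0.89), as did those of miR-1260 and miR-1274B (r = -0.73), while miR-720 and miR-1274A had r = 0.63.

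**Figure D2:**
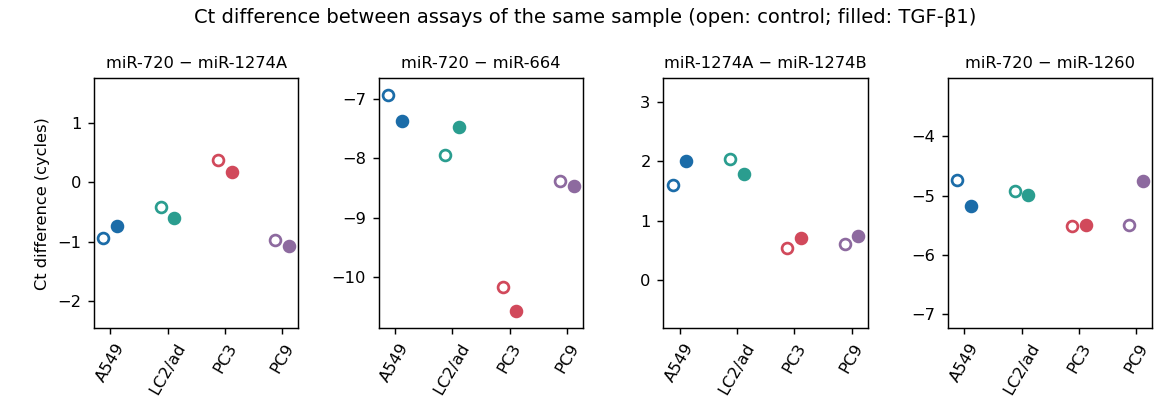
Ct difference (cycles) between pairs of assays in the same sample, by cell line, control open and TGF-β1 filled, on axes of equal height. miR-720 minus miR-1274A is above 0 in PC3 only, miR-720 minus miR-664 is lowest in PC3 (-10.17 and -10.58), miR-1274A minus miR-1274B is lower in PC3 and PC9 than in A549 and LC2/ad, and miR-720 minus miR-1260 stays between -5.52 and -4.74.

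The last comparison asked what 72 h of TGF-β1 did to these RNAs. None of the 5 detected members changed past the test, reached 2-fold in any line, or moved in 1 direction in all 4 lines, under any normalizer or Ct limit tried. miR-1291 was at least 2-fold higher in A549 at the limits that admit it. Over the lines, 0 of 5 members and 0 of 250 assays (0%) passed an adjusted p of 0.05 with limma. At an unadjusted p under 0.05 there were 0 of 5 members and 30 of 250 assays (12%). Of 204 assays with a value in all lines, 43 (21.1%) had 1 sign throughout. The share of assays at least 2-fold changed at a Ct of 32 or below in both samples was 6.67% in PC9, 0.562% in PC3, 18.6% in LC2/ad and 7.45% in A549.

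For the tRNA-matching members, the log2 changes of miR-720 were -0.45 in PC9, -0.15 in PC3, 0.06 in LC2/ad and -0.15 in A549, a mean of -0.17 (SE 0.18, n = 4 lines, 95% CI -0.62 to 0.28, adjusted p = 0.697, limma). miR-1274A had -0.56, -0.34, -0.12 and 0.06 in the same order, a mean of -0.24 (SE 0.19, 95% CI -0.71 to 0.23, adjusted p = 0.631, limma). miR-1274B had 0.46 in A549 but -0.38, -0.18 and -0.43 in LC2/ad, PC3 and PC9, a mean of -0.13 (SE 0.22, 95% CI -0.69 to 0.42, adjusted p = 0.808, limma). These 3 assays were lower in 3 of 4 lines each, by less than a cycle. Under other normalizers, though, their PC9 values moved to 0.17, 0.06 and 0.19 at most, and the LC2/ad value of miR-1274A to 0.04. miR-1260 had 0.30 in PC9, -0.13 in PC3, -0.0037 in LC2/ad and -0.59 in A549, a mean of -0.11 (SE 0.21, 95% CI -0.64 to 0.43, adjusted p = 0.856, limma). With the card mean it was the only detected member with a positive value in PC9.

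For the snoRNA members, miR-664 had -0.53 in PC9, -0.56 in PC3, 0.53 in LC2/ad and -0.58 in A549, a mean of -0.29 (SE 0.26, 95% CI -0.93 to 0.36, adjusted p = 0.660, limma). Its LC2/ad value had the other sign from those of A549 and PC3 under every normalizer and Ct limit tried, whereas its PC9 value was 0.0075 to 0.09 with the control RNAs as normalizer. miR-1291 gave no difference in any line at the limit of 35, since all its Ct values were above it. With a limit of 38 its change in A549 was 2.23 (4.68-fold, a bound, as the control was beyond the limit) and in PC3 0.17. With the deposited Ct used as given, 40 included, it was 4.23 in A549 (18.7-fold), 0.17 in PC3, -0.33 in PC9 and -0.74 in LC2/ad, a mean of 0.83 (adjusted p = 0.844, limma). Both PC9 samples were at 40, so the PC9 value is only the shift of the card mean. The LC2/ad value sets 39.02 against 40. Values that include a sample without amplification are not measured changes, and the mean contains them. The authors' deposited table lists a fold of 19.1 for miR-1291 in A549, from a control at 40 and a TGF-β1 sample at 35.35. For the other members the authors' deposited table lists folds between 0.62 and 1.79.

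In PC9 the members were read against several references, because the choice moved the sign of 4 members there. It also moved the sign of some small changes elsewhere. In LC2/ad the ranges over the settings were -0.12 to 0.22 for miR-720, -0.18 to 0.16 for miR-1260 and -0.3 to 0.04 for miR-1274A. In A549 the range of miR-1274A was -0.08 to 0.18. Relative to the mean of the microRNAs on card B, U6 changed by -0.53 in PC9, RNU44 by -0.64 and RNU48 by -0.60, next to -0.45 for miR-720, -0.56 for miR-1274A, -0.43 for miR-1274B and -0.53 for miR-664. The values of these 4 members thus lay beside those of the control RNAs, and with U6 as the normalizer they became 0.09, -0.02, 0.11 and 0.01, while miR-1260 had 0.84. The same scaling moved the median of the 250 assays in PC9 from -0.05 to 0.73, and the 2-fold counts there from 5 higher and 4 lower to 45 higher and 0 lower.

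**Figure D3:**
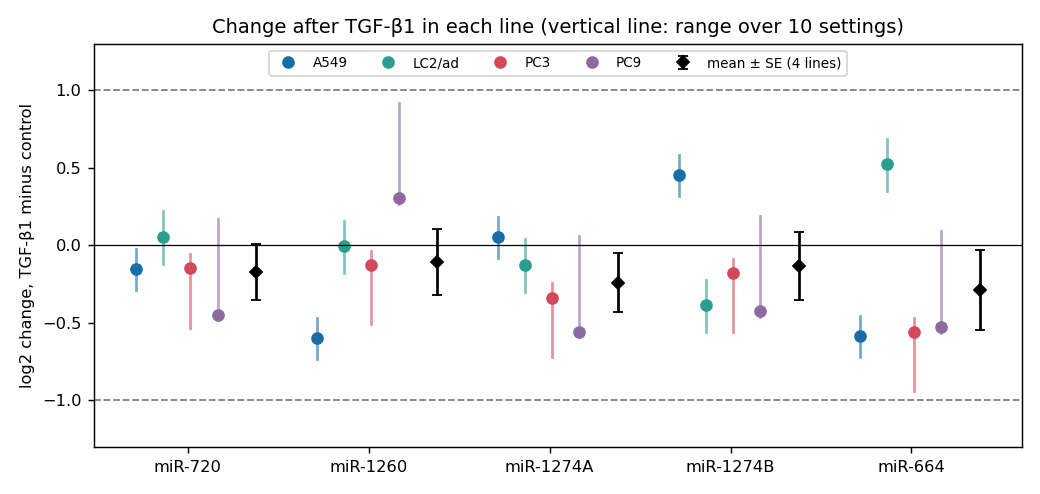
Log2 change after TGF-β1 (TGF-β1 minus control) of the 5 detected assays, with a point per cell line, a vertical line for the range over 10 settings of normalizer and Ct limit, and a diamond with its bar for the mean and SE over 4 lines. No point or range reaches the dashed 2-fold lines at -1 and 1, and the means lie between -0.29 and -0.11.

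Other assays named for non-canonical small RNAs were taken from a fixed list of 9, of which 4 were matched on the cards. Of the 3 tested, 0 rose and 0 fell (limma, adjusted p under 0.05). Their mean changes were -0.58 for miR-886-3p, -0.29 for miR-886-5p and 0.43 for miR-1201, so they had no common direction. The median over all 250 assays was -0.08. The snoRNA-derived miR-1201 had a Ct of 35.59 and 34.22 in PC9, 32.32 and 31.52 in PC3, 31.32 and 31.26 in LC2/ad, and 31.56 and 31 in A549. It was detected in 7 samples, with a mean change of 0.43 (SE 0.20, adjusted p = 0.419, limma) that contains a bound in PC9, and its level differed between lines (adjusted p = 0.00182, limma F test), lowest in PC9 rather than in PC3, where miR-664 was lowest. The snoRNA-derived miR-1248 was detected only in A549 after TGF-β1, at 34.77. The miR-886-5p and miR-886-3p assays, which read the vault-like RNA nc886, had their lowest Ct in PC9 (26.22 and 28.18 in its control sample) and were not detected in PC3. Among 7 matched mirtrons, microRNAs cut from short introns by splicing rather than Drosha, 5 stayed at 40 in all samples, 1 was tested, and 0 rose or fell. miR-1227, the tested one, had a mean change of -0.53 (SE 0.58, adjusted p = 0.705, limma).

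The assays most like each member were ranked by Pearson r of the normalized level over the 8 samples, among 167 other assays detected in all of them. The samples come in pairs of 1 line and share the normalizers, so these values are descriptive. miR-1274A was closest to miR-132 (r = 0.97), miR-18a (0.94) and miR-218 (0.92). miR-664 was closest to miR-484 (r = 0.97), miR-31 (0.94) and miR-29a (0.93). miR-720 was closest to miR-191 (r = 0.93), miR-93# (0.91), where # marks a passenger strand, and miR-149 (0.90). For miR-1274B the closest were miR-769-5p (r = 0.89), miR-340 (0.85) and miR-324-5p (0.83), and for miR-1260 miR-671-3p (0.78), miR-196b (0.77) and miR-339-3p (0.76). No member was among the 3 closest assays of another member.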

How the data were processed

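RNA was reverse transcribed and read by TaqMan PCR of 40 cycles, per the labels' protocols. The deposited values are raw Ct, ratios and folds of treated over control. Per the file headers, the ratios are set to 1 in the A549 control. Recomputing the deposited ratio from Ct minus the card's mean U6 Ct gave a largest log2 difference of 4.07e-06. The instrument's software was not given in the sources used here. Groups follow the treatment characteristic and title. The source name words the exposure the other way round.

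A Ct above 35 was set to 35. Each card was scaled to the mean Ct of the assays that every sample detected (117 for card A, 51 for card B). For changes, limma 3.58.1 (R 4.3.3) was fitted to within-line differences, for assays with a value in at least 3 lines. For levels, line terms were tested by F beside a treatment term. Both were two-sided with Benjamini-Hochberg adjustment over all assays, and were tested on simulated data. A change from a sample above 35 is a bound. The pairing comes from the cell line: deviations of the samples of a line correlated over 168 assays at r = 0.92 for PC9, 0.94 for PC3, 0.81 for LC2/ad and 0.92 for A549. Between lines, r reached at most 0.79 for A549 and LC2/ad, little below the value within LC2/ad. For PC3 and PC9 that maximum was -0.13. Whether A549 and LC2/ad behave as independent lines was not tested. All 6 members were named, with the 3 assays most like each and, from fixed lists, every snoRNA assay and up to 4 of the lowest mean Ct. Members and lists were chosen with earlier results of these data known. Alternatives covered normalizers, Ct limits, filters, blocking and left-out lines.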

Additional observations from a re-analysis of the deposited data

Results flagged for a closer look

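The normalized level of miR-1274B in the 4 TGF-β1 samples had 1 sample far from the rest. PC9 was at 8.60 and the others between 9.74 and 9.88, so the gap took 0.893 of the range. Chance gives such a gap in about 1 of 20 groups, and 10 groups were examined.

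The log2 changes after TGF-β1 had opposite signs between lines, each larger than 0.40, in 2 assays. That size is the largest SD of the U6 wells on card B, chosen after the data were seen. It is the error of 1 well, while a change compares 2 wells, so well-to-well error alone can exceed it. The spread between cultures is also left out. miR-1274B had 0.46 in A549 and -0.43 in PC9, but in PC9 it was 0.11 with U6, 0.19 with RNU44 and RNU48 and 0.16 with all control RNAs, the sign of A549. miR-664 had 0.53 in LC2/ad, and -0.58 in A549, -0.56 in PC3 and -0.53 in PC9, where it was 0.0075 with U6, 0.09 with RNU44 and RNU48 and 0.063 with all control RNAs. With 1 sample per line and treatment, these differences between lines were not tested.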

How the results depend on the processing

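The count of assays changed over the lines was 0 in all settings, the unpaired fit without the cell line as a block included, except with U6 as the normalizer (2, both higher). It was 0 without each line in turn. The count of assays that differ in level between lines was 110 to 246 with 1 line left out (110 without PC3 and 141 without PC9), against 240. The median over 250 assays moved from -0.08 to 0.13 with U6. None of the 5 detected members passed the test of change in any of 15 alternatives. The mean of miR-1260 turned to 0.0075 with U6, 0.055 with RNU44 and RNU48, 0.039 with all control RNAs and 0.058 without A549. That of miR-1274B turned to 0.028 with RNU44 and RNU48 and 0.012 with all control RNAs. No single-line change of the 5 detected members reached 2-fold in any setting, while miR-1291 in A549 was at 2.23 with a limit of 38 and 4.23 with none.

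Between lines, miR-664 passed in 13 of 14 alternatives, miR-1274A in 12, miR-1274B in 6, miR-720 in 2 and miR-1260 in 0. miR-1274B also did not pass with all control RNAs (adjusted p = 0.128), 1 mean over both cards (0.120), a limit of 38 (0.121) or no limit (0.0764, all limma F test). The cause was not tested.

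Counts at 2-fold rose with the Ct limit, which admits assays of few copies, and so did the number of assays counted. With a limit of 38 they were 59 of 242 in PC9, 46 of 291 in PC3, 90 of 289 in LC2/ad and 72 of 274 in A549. With no limit they were 133, 135, 172 and 144 in the same order, of 754 assays each. The main counts were 9 of 135, 1 of 178, 31 of 167 and 12 of 161. In PC3 they were 3 with U6, 4 with RNU44 and RNU48 and 2 with all control RNAs, and in PC9 45, 17 and 26.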
